A study of Mus musculus with 4 samples.

Results

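The Hox genes were followed through RNA sequencing of mouse brain from reciprocal F1 hybrids and their parental strains. They were taken as every gene whose symbol is Hox, a cluster letter from a to d and a number, which gave 39 genes with 87 annotated transcripts, out of 45215 genes with a transcript of at least 200 bases. The 4 groups were F1r (CAST/EiJ x C57BL/6), F1i (C57BL/6 x CAST/EiJ), CAST (CAST/EiJ, an inbred strain derived from wild Mus musculus castaneus) and B6 (C57BL/6, a standard laboratory strain). All animals were labelled wild type, with no treatment and no age given, and the labels do not say which parent of a hybrid was the dam. Each group has 1 library, made from a pool of 5 mice of which the left hemisphere was taken, whereas the series design speaks of whole brain. With 1 library per group, no difference below has a replicate check or a p-value.

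Hox genes encode homeodomain transcription factors that give cells of the embryo their position along the head-to-tail axis. They lie in 4 clusters, and their order along the chromosome follows the order of their expression domains, with low paralogue numbers reaching forward into the hindbrain and high numbers confined to the trunk and tail. Forebrain and midbrain are known to form without Hox expression, while some neurons of the pons and medulla keep it into adult life, and for this reason Hox RNA serves as a marker of hindbrain tissue in a brain sample. In these files the Hoxa cluster lies on the minus strand of chromosome 6, and Hoxb spans chromosome 11 from 96194316 to 96368256, Hoxc chromosome 15 from 102921103 to 103036852 and Hoxd chromosome 2 from 74668310 to 74765142, the last 3 on the plus strand (GRCm38). All 87 Hox transcripts had the same chromosome, start and end in the GENCODE M21 annotation of that build.

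The promoters of 3 Hox genes are shown because the results below turn on them: Hoxa5 had the highest mean level, Hoxa9 is the next gene after Hoxa7 in the same cluster and was listed at 0 in every library, and Hoxb8 was the gene that stood apart in CAST. Each window runs from 250 bases before to 50 bases after the annotated start, 5′ to 3′ on the gene's own strand (RefSeq, GRCm38.p6), and capitals mark CG dinucleotides, the sites of DNA methylation, which are dense in the CpG islands where Polycomb proteins are known to act.
Hoxa5, chr6:52204538-52204837, minus strand: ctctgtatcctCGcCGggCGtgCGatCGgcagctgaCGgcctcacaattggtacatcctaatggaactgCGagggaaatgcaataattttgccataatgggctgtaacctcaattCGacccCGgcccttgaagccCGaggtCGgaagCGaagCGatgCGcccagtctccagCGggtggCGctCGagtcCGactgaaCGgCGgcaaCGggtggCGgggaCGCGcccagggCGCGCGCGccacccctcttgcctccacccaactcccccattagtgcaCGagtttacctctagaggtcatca
Hoxa9, chr6:52227321-52227620, minus strand: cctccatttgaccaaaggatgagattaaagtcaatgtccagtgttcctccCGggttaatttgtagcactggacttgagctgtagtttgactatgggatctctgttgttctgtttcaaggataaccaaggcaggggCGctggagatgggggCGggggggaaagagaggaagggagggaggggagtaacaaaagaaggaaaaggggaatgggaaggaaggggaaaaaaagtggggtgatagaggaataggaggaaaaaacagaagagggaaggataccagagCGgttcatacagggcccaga
Hoxb8, chr11:96281655-96281954, plus strand: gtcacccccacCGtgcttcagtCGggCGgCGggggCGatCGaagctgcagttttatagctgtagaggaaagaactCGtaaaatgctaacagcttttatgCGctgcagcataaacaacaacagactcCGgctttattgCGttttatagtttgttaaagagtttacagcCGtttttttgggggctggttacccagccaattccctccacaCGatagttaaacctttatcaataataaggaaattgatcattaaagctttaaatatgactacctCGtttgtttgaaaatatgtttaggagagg
The Hoxa5 window held 29 CG dinucleotides, the Hoxb8 window 13 and the Hoxa9 window 4, with 1.02, 0.970 and 0.280 times the number that their base composition gives. Over the 24 Hox windows, from 22 genes, the median ratio was 0.626, against 0.384 over all 32851 promoter windows. The median ratio was 0.625 over the 14 windows of genes listed above 0 in some library and 0.675 over the 10 windows of genes listed at 0 in all of them. A single motif, AGGTCA, the half-site of retinoic acid and other nuclear receptors, was searched on both strands. It was found in 7 of the 24 Hox windows (29.2%), among them that of Hoxa5, and in 16.3% of all windows. Of these 7 windows, 6 belong to genes listed above 0 and 1 to Hoxd10, which was listed at 0. Hoxd8, Hoxd3, Hoxd4, Hoxb4 and Hoxc4 were the other genes with a match.

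Hox RNA was present at a low level in every library. The unit is FPKM, fragments per kilobase of transcript scaled to the mapped fragments of a library, summed over the transcripts of a gene. Summed over all 39 genes, the level was 6.39 FPKM in F1r, 9.08 in F1i, 8.87 in CAST and 8.20 in B6. F1r was the lowest of the 4 libraries and the other three lay close to each other. Read counts are not in the files, but the lowest values of single-transcript genes of 1500 to 3000 bases pile up at a smallest step and again near 2 times that step (1.83 to 2.07 times), which gives the worth of 1 fragment. On a transcript of 2000 bases, 1 fragment was worth 0.0165 FPKM in F1r, 0.0148 in F1i, 0.0167 in CAST and 0.0117 in B6. By this estimate all Hox genes together rested on 379 fragments in F1r (342 to 419), 587 in F1i (540 to 636), 490 in CAST (448 to 535) and 643 in B6 (594 to 695). The ranges are exact 95% Poisson intervals, which cover counting error only, since the fragments carry no molecular identifiers.

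Detection followed the paralogue number. Of the 23 genes of paralogue groups 1 to 8, 20 were listed above 0 in all 4 libraries, and Hoxb1 and Hoxc8 in none. Hoxd8 was listed above 0 in F1r, F1i and CAST, at 0.0508, 0.0797 and 0.109 FPKM, and at 0 in B6. Of the 16 genes of groups 9 to 13, 13 were listed at 0 throughout, and the other three had at most 4 estimated fragments in any library. These were Hoxb9, at 0 in F1r, 0.0304 FPKM in F1i, 0 in CAST and 0.0335 in B6, and Hoxd9 and Hoxd13, with 1 estimated fragment each in F1i and none elsewhere. Groups 9 to 13 therefore made up 0% of the Hox sum in F1r, 0.728% in F1i, 0% in CAST and 0.409% in B6. Counting genes of at least 0.1 FPKM, 17 Hox genes were detected in F1r, 16 in F1i, 19 in CAST and 17 in B6, and 14 were detected in all 4. Of the 39 Hox genes, 24 were listed above 0 in some library, beside 27971 of all 45215 genes. A mean of at least 0.1 FPKM was reached by 17 of the 39 and by 20559 of the 45215. By these counts Hox genes were not detected more often than genes in general. A count of 0 fragments allows up to 3 by a one-sided 95% limit, or 0.0496 FPKM in F1r, 0.0444 in F1i, 0.0501 in CAST and 0.0352 in B6 on a transcript of 2000 bases. The widely expressed gene Men1 was also listed at 0 in all 4 libraries, so a value of 0 in these files is given as listed at 0 and not as absent RNA.

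**Figure D1:**
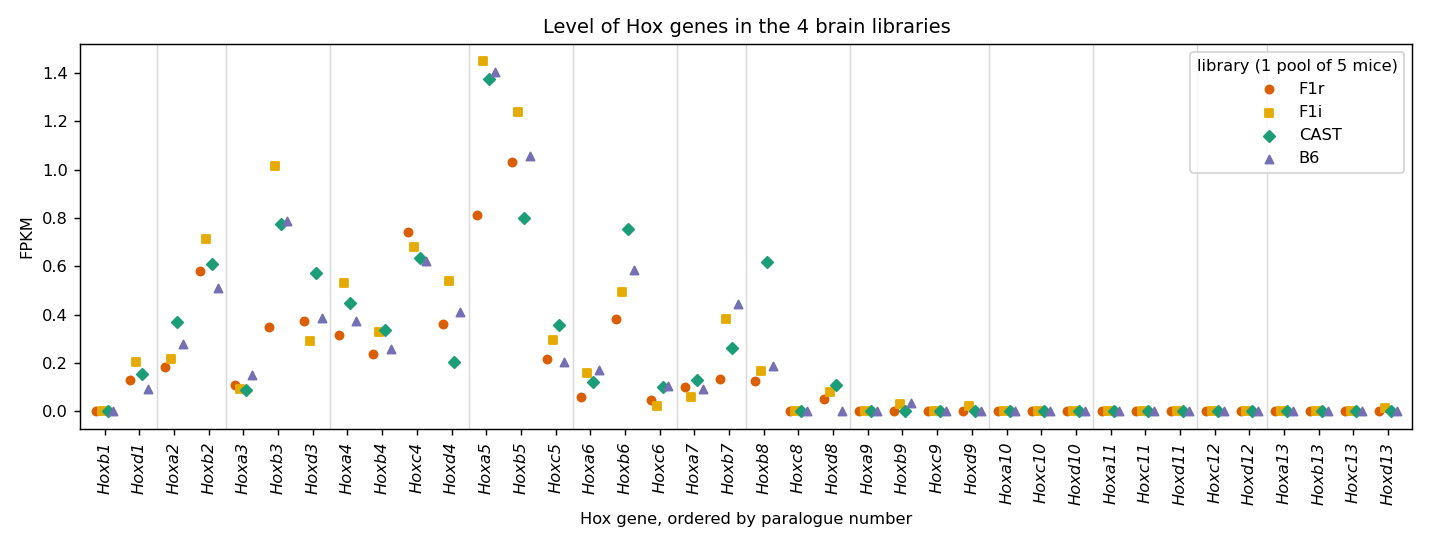
FPKM (linear axis) of Hox genes, ordered by paralogue number along the horizontal axis, with 1 point per library and grey lines between paralogue groups. Hoxa5, between 0.813 and 1.45 FPKM, and Hoxb5, between 0.799 and 1.24, are the highest, and points of groups 9 to 13 lie at or near 0.

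The summed level had a single main peak at group 5 in every library. Group 2 stood at 0.768, 0.931, 0.983 and 0.792 FPKM in F1r, F1i, CAST and B6, group 3 at 0.831, 1.398, 1.44 and 1.32, and group 4 at 1.66, 2.08, 1.63 and 1.67. These sums cover 2 genes in group 2, 3 in group 3 and 4 in group 4, so their rise goes along with the number of genes summed. Groups 5, 6, 7 and 8 hold 3, 3, 2 and 3 genes. Group 5 reached 2.06 FPKM in F1r, 2.98 in F1i, 2.53 in CAST and 2.66 in B6, and so held 32.2%, 32.8%, 28.5% and 32.5% of the Hox sum. Beyond it the level dropped to 0.493, 0.677, 0.976 and 0.864 FPKM in group 6 and 0.235, 0.439, 0.393 and 0.540 in group 7. Group 8 stood at 0.178 FPKM in F1r, 0.248 in F1i, 0.728 in CAST and 0.188 in B6, the only group from 2 to 8 in which CAST was more than 1.5 times each of the other libraries. Groups 3 to 5, whose embryonic domains end forward in the middle and caudal hindbrain, held between 63.1% (CAST) and 71.2% (F1r) of the sum. Groups 6 to 8, which are known mainly from the spinal cord, held 14.2% in F1r, 15.0% in F1i, 23.7% in CAST and 19.4% in B6. The set named as a hindbrain marker covers genes whose better-known domain lies behind the hindbrain, and these too were detected.

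**Figure D2:**
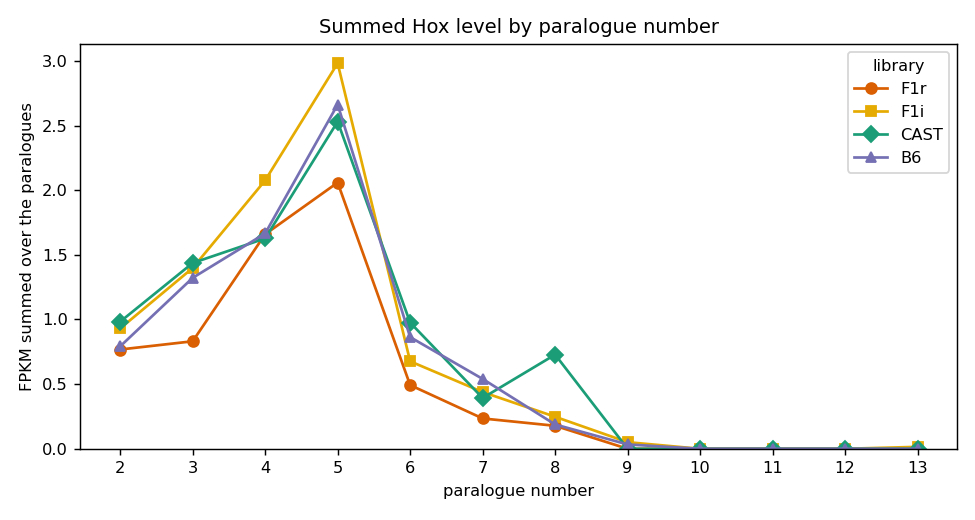
FPKM summed over the Hox genes of each paralogue number from 2 to 13, with 1 line per library. The sums are not divided by the number of genes, which differs between paralogue numbers. All 4 lines peak at paralogue 5, between 2.06 (F1r) and 2.98 FPKM (F1i), and lie at or near 0 from paralogue 9 on, while CAST alone rises at paralogue 8 (0.728 FPKM).

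The clusters were unequal. Hoxb gave the largest share, 2.84 FPKM in F1r, 4.37 in F1i, 4.16 in CAST and 3.86 in B6, between 44.5% and 48.1% of the sum. Hoxa followed with 1.62 FPKM in F1r, 2.56 in F1i, 2.57 in CAST and 2.51 in B6. Hoxc and Hoxd were lower, Hoxc at 1.01, 0.998, 1.09 and 0.931 FPKM and Hoxd at 0.916, 1.15, 1.04 and 0.891 in F1r, F1i, CAST and B6. The last gene listed above 0 in all 4 libraries was Hoxa7 in the Hoxa cluster, Hoxb8 in Hoxb, Hoxc6 in Hoxc and Hoxd4 in Hoxd.

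**Figure D3:**
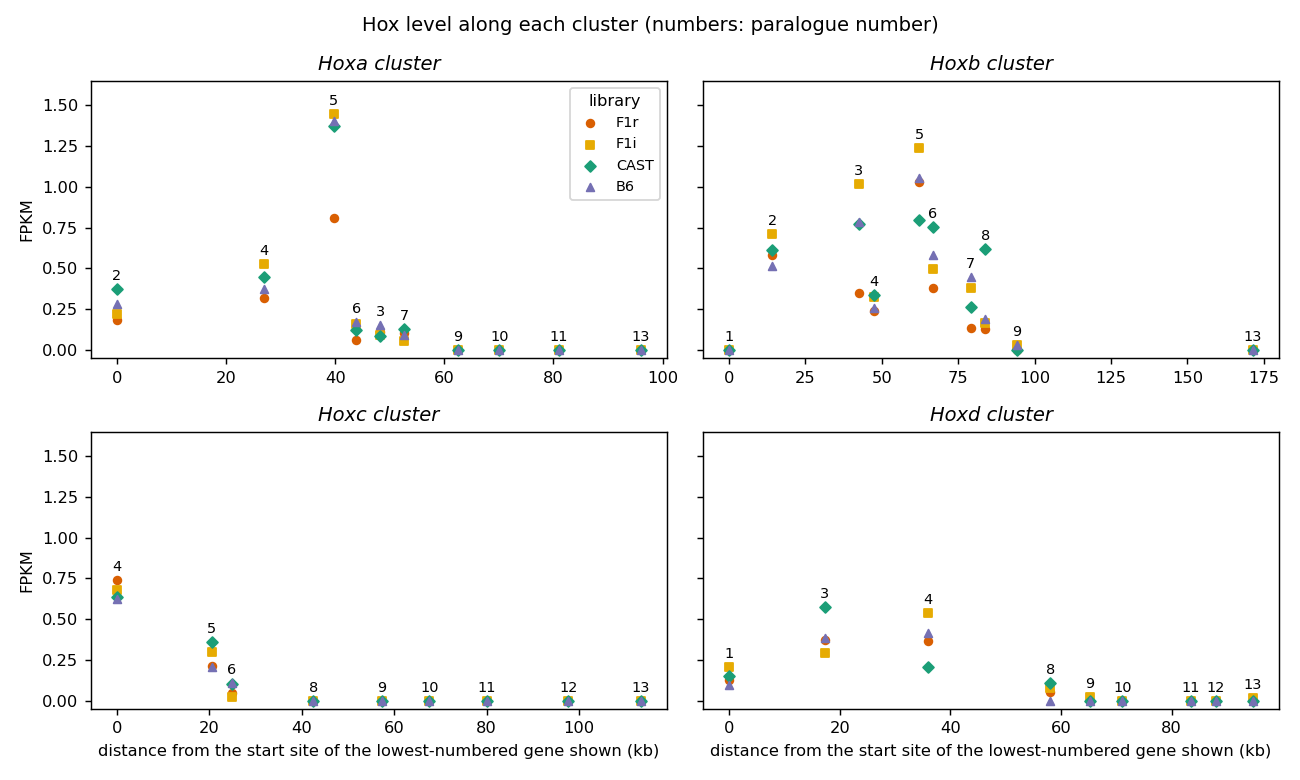
FPKM of Hox genes in each library against the distance in kilobases from the start site of the lowest-numbered gene shown of their cluster, with 1 panel per cluster, paralogue numbers above the points and the start taken from the transcript with the highest mean FPKM. The highest points, Hoxa5 and Hoxb5, lie inside their clusters and not at the low-numbered end, and the far part of every cluster lies at or near 0. Hoxa3 is drawn beyond Hoxa5, because the start taken for it is that of a transcript beginning farther out.

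Among the genes of groups 1 and 2, which pattern the front of the hindbrain, Hoxb2 was the highest. Hoxb2, needed for facial motor neuron development, was at 0.583 FPKM in F1r, 0.712 in F1i, 0.612 in CAST and 0.512 in B6. Hoxa2, which sets the identity of the anterior rhombomeres and the second pharyngeal arch, was at 0.185 FPKM in F1r, 0.218 in F1i, 0.371 in CAST and 0.280 in B6. Hoxb2 was highest in F1i and lowest in B6, and Hoxa2 highest in CAST and lowest in F1r, on 20 and 10 estimated fragments. Hoxd1, known from the wiring of pain-sensing neurons, was at 0.128 FPKM in F1r, 0.205 in F1i, 0.153 in CAST and 0.0929 in B6. Hoxb1, the selector of the fourth rhombomere, was listed at 0.

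Group 3 and group 4 genes, with forward borders in the middle and caudal hindbrain, were led by Hoxb3 and Hoxc4. Hoxb3 on chromosome 11 (96323326 to 96347930) was at 0.350 FPKM in F1r, 1.02 in F1i, 0.774 in CAST and 0.786 in B6, with F1r below the other three. Hoxd3 was at 0.374 FPKM in F1r, 0.291 in F1i, 0.575 in CAST and 0.386 in B6. For Hoxa3, known for its part in thymus and parathyroid formation, the values were 0.108 FPKM in F1r, 0.0921 in F1i, 0.0886 in CAST and 0.151 in B6, close to the filter of 0.1. Hoxc4, with values close to each other in all libraries, was at 0.743 FPKM in F1r, 0.680 in F1i, 0.634 in CAST and 0.621 in B6. Hoxa4 was at 0.316 FPKM in F1r, 0.529 in F1i, 0.449 in CAST and 0.373 in B6, and Hoxb4, also a regulator of blood stem cells, at 0.237 FPKM in F1r, 0.328 in F1i, 0.338 in CAST and 0.258 in B6. Hoxd4 was at 0.363 FPKM in F1r, 0.538 in F1i, 0.205 in CAST and 0.413 in B6, with its lowest value in CAST, whereas Hoxa4 and Hoxb4 were lowest in F1r and Hoxc4 in B6. Hoxd3 and Hoxd4 are uncertain, because 61.1% and 49.1% of their 31-base words recur in the transcripts of another gene, mostly Gm28230, which overlaps both, and Hoxa2 (13.7%) and Hoxa3 (8.24%) share fewer words, mostly with Gm28308.

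Group 5 held the highest genes. Hoxa5, which is required for the respiratory system and for phrenic motor neurons, lies on chromosome 6 from 52201754 to 52204587 and was at 0.813 FPKM in F1r, 1.45 in F1i, 1.37 in CAST and 1.403 in B6. F1i, CAST and B6 lay between 1.37 and 1.45 FPKM and F1r lay below them, on 46, 92, 77 and 112 estimated fragments in F1r, F1i, CAST and B6. Hoxb5 on chromosome 11 (96303336 to 96306121) was at 1.03 FPKM in F1r, 1.24 in F1i, 0.799 in CAST and 1.06 in B6, with CAST the lowest. It was the highest Hox gene in F1r, while Hoxa5 led in the other libraries. Hoxc5, which acts with Hoxa5 in phrenic motor neurons, was at 0.215 FPKM in F1r, 0.296 in F1i, 0.357 in CAST and 0.204 in B6. Averaged over the libraries Hoxa5 stood at 1.26 FPKM and Hoxb5 at 1.03, and 29.2% and 30.3% of all genes had a higher mean.

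Groups 6 to 8 were carried by the Hoxb cluster. Hoxb6 was at 0.383 FPKM in F1r, 0.496 in F1i, 0.756 in CAST and 0.585 in B6. Its Hoxa counterpart Hoxa6 was at 0.0603 FPKM in F1r, 0.159 in F1i, 0.120 in CAST and 0.172 in B6, on at most 6 estimated fragments. Hoxc6, a marker of brachial motor neurons, reached 0.106 FPKM in B6 at most, and Hoxa7 0.130 FPKM in CAST; both fell below the filter on mean level. Hoxb7 (chromosome 11, 96286623 to 96290162) was at 0.133 FPKM in F1r, 0.380 in F1i, 0.263 in CAST and 0.446 in B6, lowest in F1r. Hoxb8 (chromosome 11, 96281905 to 96285315), known from the dorsal spinal cord and from blood cell progenitors, was at 0.127 FPKM in F1r, 0.168 in F1i, 0.619 in CAST and 0.188 in B6. CAST stood above the other three, on 32 estimated fragments (21.9 to 45.2) against 7 in F1r, 14 in F1i and 16 (9.15 to 26.0) in B6. The CAST value was split over the longest transcript, at 0.338 FPKM, and a transcript of 664 bases, at 0.281 FPKM. In CAST these rested on 26.6 and 5.6 estimated fragments, so the short transcript adds much FPKM on few fragments. The 664-base transcript was listed at 0 in F1i and B6 and at 0.0602 FPKM in F1r. The longest transcript alone was at 0.0670 FPKM in F1r, 0.147 in F1i and 0.101 in B6, and a transcript of 1141 bases at 0.0210 FPKM in F1i and 0.0875 in B6.

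The comparison of F1r with F1i sets hybrids from opposite directions of the cross side by side. Hox RNA was lower in F1r, with a summed level of 6.39 FPKM in F1r and 9.08 in F1i, a log2 ratio of -0.51. With every fragment given equal weight, counting error alone gives this ratio a 95% interval of -0.70 to -0.32 (Clopper-Pearson on the split of the estimated fragments). Fragments on short transcripts add more FPKM, so this interval and the counting intervals of ratios below are approximate and may be too narrow. How much 2 pools of 1 group would differ is unknown, since no group has a second library. With every library rescaled to the same total FPKM the ratio was -0.23. In a bulk sample, fewer Hox-expressing cells and less Hox RNA per cell cannot be told apart. Differences per gene were taken on log2(FPKM + 0.1), for the 17 Hox genes and 20559 genes in all whose mean over the 4 libraries was at least 0.1 FPKM. By this measure 14 of the 17 Hox genes were lower in value in F1r and 3 higher (Hoxa3, Hoxd3 and Hoxc4), with a median of -0.33, while over all genes 41.2% were lower in value and the median was 0.05. No Hox gene was at least 2-fold higher and 2 of 17 were at least 2-fold lower, Hoxb3 (-1.31) and Hoxb7 (-1.05), against 3.66% higher and 2.34% lower among all genes. The shares were larger among low genes: among the 7793 genes with a mean from 0.1 to 1.5 FPKM they were 8.82% higher and 5.50% lower. With a common total, the genes higher and lower over all genes numbered 1182 and 359, against 752 and 481 as deposited. Neither gene is a firm call: with only the highest transcript of each gene Hoxb3 no longer passed, and with every library rescaled to the same total Hoxb7 no longer passed.

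By cluster, the lower values of F1r lay mainly in Hoxa and Hoxb. Hoxa summed to 1.62 FPKM in F1r and 2.56 in F1i (log2 ratio -0.66, counting interval -1.06 to -0.27), and Hoxb to 2.84 in F1r and 4.37 in F1i (-0.62, -0.90 to -0.34). Hoxc stood at 1.01 FPKM in F1r and 0.998 in F1i (0.01, -0.48 to 0.51), and Hoxd at 0.916 in F1r and 1.15 in F1i (-0.33, -0.86 to 0.20). Whether the clusters differ from each other in this ratio was not tested, and the intervals of Hoxc and Hoxd overlap those of Hoxa and Hoxb. Without Hoxa5 and Hoxb3, the genes with the widest gaps in FPKM, the ratio over the remaining Hox genes was -0.34.

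Regional and cell type markers also differed between the hybrids. Over all genes past the filter, 58.3% were higher in value in F1r and 41.2% lower, and 3.66% and 2.34% were at least 2-fold higher and lower. The 13 genes of brainstem neurons summed to 17.4 FPKM in F1r and 23.7 in F1i, and of the 11 past the filter 10 were lower in value in F1r. Those at least 2-fold lower were Tph2, the serotonin-synthesising enzyme of the raphe (1.43 FPKM in F1r, 3.55 in F1i), and the serotonin transporter Slc6a4 (0.634 in F1r, 2.29 in F1i). Dbh, which makes noradrenaline, was the member higher in value in F1r (0.728 FPKM in F1r, 0.357 in F1i). Fev, a transcription factor of serotonin neurons, was below the filter on mean level and also higher in value in F1r (0.267 FPKM in F1r, 0.0522 in F1i). Slc6a5, the glycine transporter of brainstem and spinal neurons, was at 3.43 FPKM in F1r, 3.99 in F1i, 3.42 in CAST and 3.93 in B6, and the glycine receptor subunit Glra1 at 5.49 FPKM in F1r, 6.99 in F1i, 5.12 in CAST and 6.49 in B6. Midbrain genes summed to 9.99 FPKM in F1r and 13.03 in F1i, with 5 of 7 lower in value and none past 2-fold, and cerebellar genes to 324 and 365 FPKM, with 9 of 10 lower in value and none past 2-fold. Forebrain genes went the other way, at 92.9 FPKM in F1r and 82.3 in F1i, with 12 of 14 higher in value and none past 2-fold. Blood genes stood at 339 FPKM in F1r and 516 in F1i, with the neutrophil genes S100a8 (5.59 FPKM in F1r, 1.80 in F1i) and S100a9 (6.80 in F1r, 2.76 in F1i) at least 2-fold higher in F1r. The globin gene Hba-a2 was at least 2-fold lower (18.2 FPKM in F1r, 37.2 in F1i). Myelin genes were at 1660 FPKM in F1r and 1811 in F1i, with 6 of 8 lower in value and none past 2-fold. Choroid plexus genes were at 547 and 655 FPKM in F1r and F1i, and mural and meningeal genes at 34.3 and 35.0. The part of these differences in the Hox values was not tested.

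The parental strains were compared in the same way. Summed Hox RNA was nearly equal as deposited, at 8.87 FPKM in CAST and 8.20 in B6, a log2 ratio of 0.11 with a counting interval of -0.06 to 0.29. This depends on the scaling, since the ratio was 0.46 with every library rescaled to the same total FPKM. Over the 16 Hox genes that overlap no other gene it was 0.29. Of the 17 genes past the filter 10 were higher in value in CAST and 7 lower, with a median of 0.22 beside 0.06 over all 20559 genes. That is 58.8% and 41.2% of the Hox genes, close to the 55.8% higher and 43.9% lower among all genes. Hoxb8 was at least 2-fold higher in CAST (1.32; 0.619 FPKM in CAST, 0.188 in B6) and no Hox gene was at least 2-fold lower. This is 1 of 17 genes, against 8.07% higher and 6.76% lower among all genes and 15.4% and 12.8% among those from 0.1 to 1.5 FPKM, so the share of Hox genes past 2-fold does not exceed the background. With a common total, the genes higher and lower over all genes were 2669 and 955, against 1659 and 1389 as deposited. Hoxd4 (-0.75), Hoxb7 (-0.59) and Hoxa3 (-0.41) were the lowest in value in CAST, and Hoxc5 (0.59) and Hoxd3 (0.47) followed Hoxb8 at the upper end. Hoxd3 and Hoxd4 remain uncertain because of the words shared with another gene. In CAST, 0.241 FPKM of Hoxd3 came from a transcript of 415 bases on 3 estimated fragments.

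Regional and cell type markers also differed between the parents. Over all genes past the filter, 55.8% were higher in value in CAST and 43.9% lower, and 8.07% and 6.76% were at least 2-fold higher and lower. Brainstem genes summed to 17.7 FPKM in CAST and 21.9 in B6, with 9 of 11 lower in value and none past 2-fold, and midbrain genes to 9.17 in CAST and 12.8 in B6, with Foxa2 at least 2-fold higher in CAST (0.320 FPKM in CAST, 0.0709 in B6). Forebrain genes summed to 97.9 FPKM in CAST and 75.8 in B6, with 12 of 14 higher in value and none past 2-fold. Cerebellar genes stood at 317 and 341 FPKM in CAST and B6, with Gabra6, a receptor subunit of granule cells, at least 2-fold higher in CAST (41.3 FPKM in CAST, 20.01 in B6) and Car8 of Purkinje cells at least 2-fold lower (17.1 in CAST, 43.7 in B6). Myelin genes were at 1318 FPKM in CAST and 2192 in B6, with Mobp (102 FPKM in CAST, 280.2 in B6), Mal (37.2 in CAST, 85.3 in B6) and Cldn11 (45.5 in CAST, 101 in B6) at least 2-fold lower in CAST. Blood genes were at 352 FPKM in CAST and 528 in B6, with the globin genes Hba-a2 (0.103 FPKM in CAST, 66.5 in B6) and Hbb-bt (17.0 in CAST, 48.7 in B6) at least 2-fold lower in CAST. Both globins have near-identical copies, so their values are uncertain. Choroid plexus genes were at 395 FPKM in CAST and 644 in B6, with Kl (1.655 in CAST, 4.65 in B6) and Clic6 (2.64 in CAST, 6.13 in B6) at least 2-fold lower. Mural and meningeal genes were at 31.2 FPKM in CAST and 54.2 in B6, with Vtn (13.02 in CAST, 27.2 in B6) at least 2-fold lower. The part of these differences in the Hox values was not tested.

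**Figure D4:**
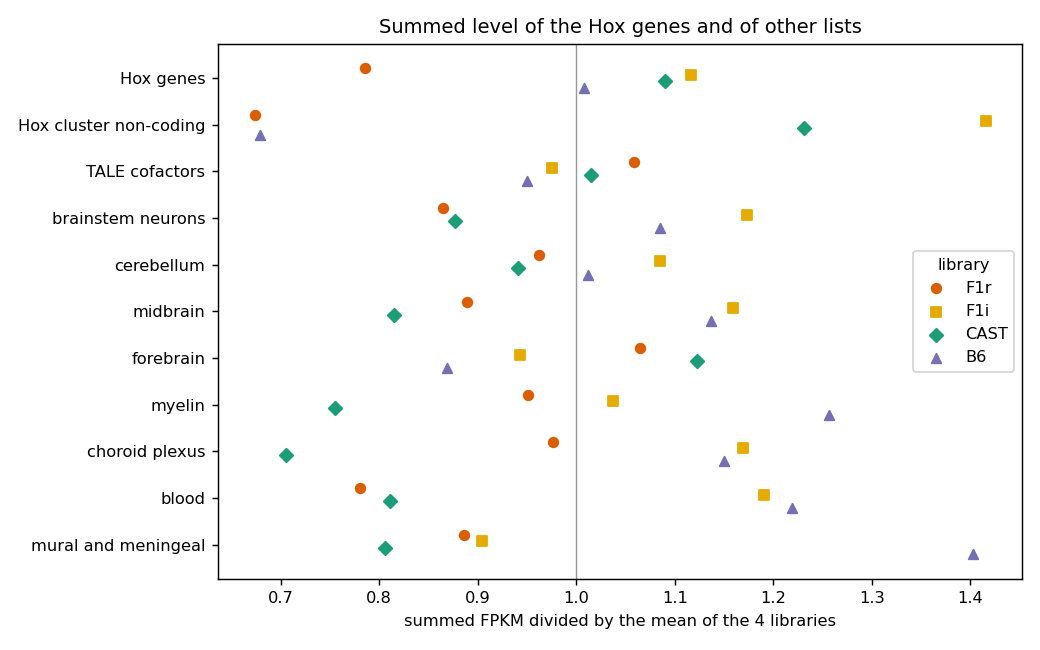
Summed FPKM of the Hox genes and of 10 other gene lists in each library, divided by the mean of the 4 libraries (vertical line at 1). For the Hox genes F1r lies at 0.785 and the other libraries between 1.01 and 1.12, whereas for brainstem neurons F1r (0.865) and CAST (0.877) both lie below F1i (1.17) and B6 (1.08).

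Hybrids and parents lay close together on average. The Hox sum averaged 7.73 FPKM over F1r and F1i and 8.53 over CAST and B6, a log2 ratio of -0.14 with a counting interval of -0.27 to -0.02, and the low value of F1r set its direction, since F1i (9.08 FPKM) lay above both parents. Of the 17 genes past the filter 6 were higher in value in the hybrids and 11 lower, with a median of -0.14 beside -0.01 over all genes. Those are 35.3% and 64.7% of the Hox genes, beside 47.1% higher and 52.9% lower among all genes. No gene was at least 2-fold higher, and Hoxb8 (-1.02) was at least 2-fold lower, with a mean of 0.148 FPKM in the hybrids and 0.404 in the parents. That is 1 of 17, against 1.08% higher and 1.54% lower among all genes and 2.73% and 3.80% among those from 0.1 to 1.5 FPKM. It rests on CAST, since B6 (0.188 FPKM) lay near F1i (0.168), and with only the highest transcript of each gene it no longer passed. The comparison shares its libraries with the other 2, and its values are not separate evidence of them.

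**Figure D5:**
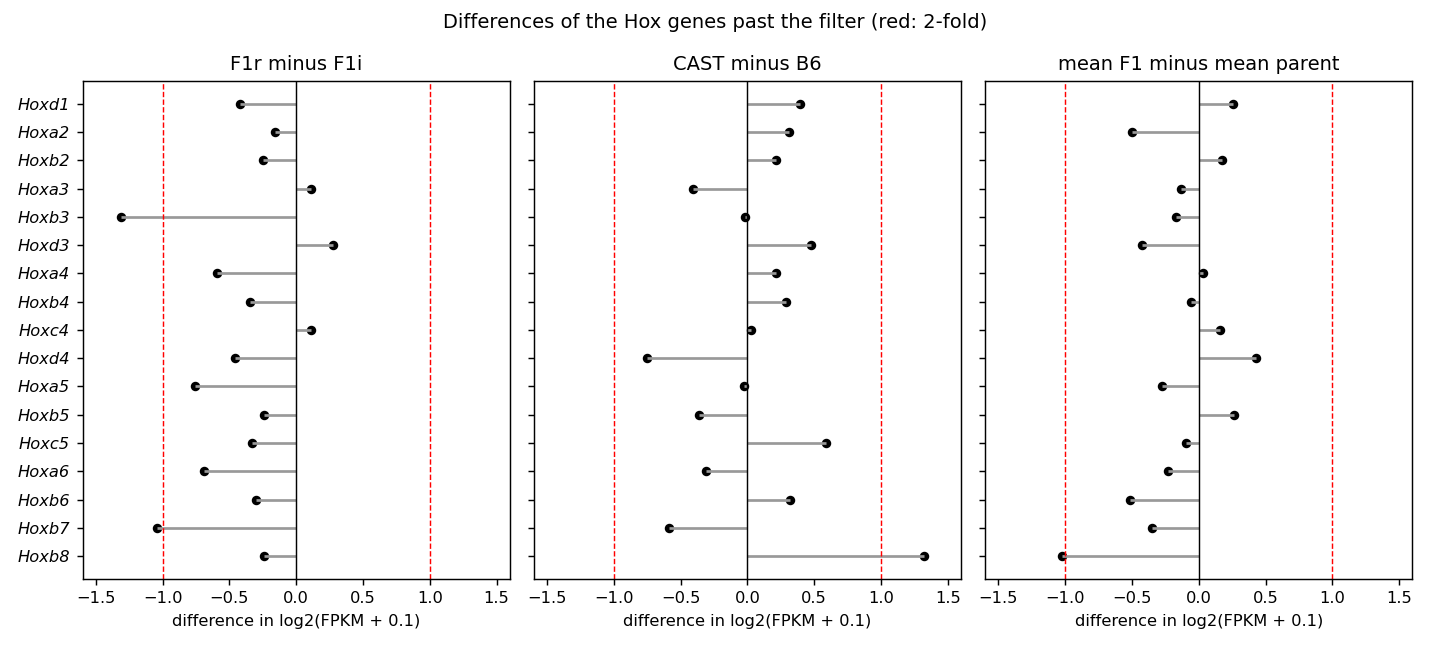
Difference in log2(FPKM + 0.1) for the 17 Hox genes with a mean of at least 0.1 FPKM, in 3 panels (F1r minus F1i, CAST minus B6, mean of the hybrids minus mean of the parents), with dashed lines at 2-fold. In the first panel 14 of 17 points lie below 0 and Hoxb3 and Hoxb7 lie past the line, and Hoxb8 lies past it in the other panels.

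Most genes that lie between the Hox genes were also low. Among those under 200 bases, which are left out of the sums, Gm27477 in the Hoxa cluster was at 15.04 FPKM in F1r and listed at 0 in F1i, CAST and B6. The 4 clusters hold 26 other annotated genes with a transcript of at least 200 bases, of which 13 were listed at 0 in all libraries and 6 had a mean of at least 0.1 FPKM. Gm11539, on the same strand as the Hoxb genes, was the highest at 1.03 FPKM in F1r, 0.424 in F1i, 0.757 in CAST and 0.895 in B6. Hotairm1, a long non-coding RNA of the Hoxa cluster, was at 0.0627 FPKM in F1r, 0.775 in F1i, 0.186 in CAST and 0.180 in B6, which made it at least 2-fold lower in F1r than in F1i. Hoxaas2, antisense in the Hoxa cluster, was at 0.287 FPKM in F1r, 0.0427 in F1i, 0.247 in CAST and 0.121 in B6 and so at least 2-fold higher in F1r than in F1i, while Hoxaas3 was at 0.0624 FPKM in F1r, 0.0965 in F1i, 0.201 in CAST and 0.0674 in B6. Haglr, which starts beside Hoxd1 on the opposite strand, was at 0.0938 FPKM in F1r, 0.290 in F1i, 0.290 in CAST and 0.0809 in B6, at least 2-fold lower in F1r than in F1i and at least 2-fold higher in CAST than in B6, and Hoxb3os was at 0.145 FPKM in F1r, 0.163 in F1i, 0.119 in CAST and 0.153 in B6. These 2-fold differences stand beside 3.66% of all genes higher and 2.34% lower in F1r than in F1i, and 8.07% and 6.76% in CAST than in B6. Among genes from 0.1 to 1.5 FPKM the shares were 8.82% and 5.50%, and 15.4% and 12.8%. Estimated fragments are not given for these genes, and at such low values they are few, as the longest Hotairm1 transcript has 713 bases. Hotair in the Hoxc cluster and Hottip beside Hoxa13 were listed at 0. Of the 17 Hox genes past the filter, 10 overlap a gene on the opposite strand and 7 overlap another Hox gene. The library kit keeps strand, but counting by strand is not given in the sources used here, so values of overlapping genes are uncertain to that extent.

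Homeobox genes just outside the clusters were listed above 0 in all libraries, while Hoxa13 beside Evx1 was listed at 0 and Hoxd13 beside Evx2 had 1 estimated fragment in F1i and none elsewhere. Evx1, next to Hoxa13 and known from commissural interneurons of the hindbrain and spinal cord, was at 0.165 FPKM in F1r, 0.199 in F1i, 0.250 in CAST and 0.186 in B6. Evx2, next to Hoxd13, was at 0.120 FPKM in F1r, 0.195 in F1i, 0.131 in CAST and 0.198 in B6. Of the ParaHox genes, relatives of the Hox clusters, Gsx1 and Gsx2 stayed at or below 0.164 FPKM and Pdx1 was listed at 0, as was Mnx1.

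The proteins that work with Hox factors or control their genes in the embryo were measured at higher levels. All 9 TALE cofactors, the homeodomain proteins of the Pbx, Meis and Pknox families that bind DNA together with Hox proteins, passed the filter. Meis2 was the highest at 34.0 FPKM in F1r, 31.2 in F1i, 28.7 in CAST and 29.2 in B6. Pbx2 was at 14.9 FPKM in F1r, 14.2 in F1i, 15.7 in CAST and 14.6 in B6, and Meis3 at 10.9 FPKM in F1r, 11.5 in F1i, 11.2 in CAST and 11.6 in B6. Summed, the cofactors were at 116 FPKM in F1r, 107 in F1i, 111 in CAST and 104 in B6, and no member was 2-fold apart in any comparison. In F1r against F1i 8 of 9 were higher in value, beside 58.3% of all genes. These genes are also known to be active in forebrain, and the levels say nothing of which cells hold them. Among 14 genes of hindbrain segmentation and retinoic acid signalling, 8 passed the filter and none was 2-fold apart in any comparison. The receptor gene Rarb was at 5.53 FPKM in F1r, 4.95 in F1i, 5.53 in CAST and 4.85 in B6, and Egr2, which sets the identity of rhombomeres in the embryo and responds to activity in adult neurons, at 2.85 FPKM in F1r, 2.33 in F1i, 3.14 in CAST and 3.80 in B6. Aldh1a2, which makes retinoic acid and in the adult brain marks meninges, was at 2.05 FPKM in F1r, 2.29 in F1i, 1.79 in CAST and 3.46 in B6. The Cdx genes, which activate posterior Hox genes in the embryo, did not exceed 0.0339 FPKM in any library.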

How the data were processed

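RNA of brain was sequenced in 4 libraries, 1 per group. Per the labels' protocols, RNA was extracted from pooled left hemispheres of 5 mice with a lipid tissue kit and made into strand-specific libraries. The authors deposited FPKM per transcript. The tools named in the submitters' processing notes are Cufflinks 2.2.1, Cuffdiff, HISAT2, Trimmomatic 0.36 and bcl2fastq 2.20. These notes give mm9 as build, while the coordinates in the files are those of GRCm38. Handling of strand and of multiply mapped reads is not given in the sources used here, nor whether CAST reads were mapped to a CAST genome.

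Transcripts of at least 200 bases were summed per gene. A gene entered a comparison with a mean of at least 0.1 FPKM, and genes at least 2-fold apart on log2(FPKM + 0.1) were counted, as 1 library per group allows no test. The low pseudocount was used because Hox values are low, and a fold on this scale understates changes of low genes. The worth of 1 fragment was the median of the lowest peak of FPKM times kilobases over single-transcript genes of 1500 to 3000 bases, with 302 to 347 transcripts in the peak. It put depth at 0.709 in F1r, 0.793 in F1i and 0.702 in CAST relative to B6. Estimated fragments ignore effective length and isoform assignment, and are rounded. The steps were checked on simulated counts. All Hox genes entered the counts and sums, and of the other lists up to 4 of the highest members and those 2-fold apart were named. Some genes are not reported here individually. Members, lists and rules were chosen with earlier results of these data known. Python 3.11.15, numpy 2.4.6, pandas 2.3.3, scipy 1.17.1 and matplotlib 3.10.9 were used.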

Additional observations from a re-analysis of the deposited data

How the results depend on the processing

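No paired analysis was possible because each group is 1 library. The summed Hox log2 ratio of F1r to F1i stayed below 0 in all alternatives, from -0.56 (highest transcript only) to -0.23 when every library was rescaled to the same total FPKM. That rescaling, which is set largely by transcripts under 200 bases, also moved CAST against B6 to 0.46 and put the median of all genes at 0.30 between F1r and F1i (0.05 as reported) and 0.39 between CAST and B6 (0.06 as reported). Under it the Hox median was -0.13 between F1r and F1i. Over the 16 Hox genes that overlap no other gene, CAST against B6 was 0.29. Counting genes of at least 1 FPKM left 1 Hox gene in F1r, 3 in F1i, 1 in CAST and 2 in B6. With a pseudocount of 1, or a mean of at least 1 FPKM, 0 Hox genes were 2-fold apart in each comparison, and with that filter 2 Hox genes entered. With no filter, 2 Hox genes were 2-fold apart between CAST and B6, Hoxb8 and Hoxd8. Between F1r and F1i 1 remained under the common total (Hoxb3) and 1 with the highest transcript only (Hoxb7), and with a pseudocount of 0.01 Hoxa6 was added. Between hybrids and parents 0 passed with the highest transcript only. Leaving out Hoxb3, Hoxb8, or Hoxa5 with Hoxb3, counting genes of at least 3 estimated fragments, and the background of genes from 0.1 to 1.5 FPKM were chosen after seeing the data. Over all genes, a pseudocount of 1 called 57 higher and 46 lower between F1r and F1i, 467 and 360 between CAST and B6, and 9 and 27 between hybrids and parents (222 and 316 as reported). A mean of at least 1 FPKM gave 112 and 73, 575 and 494, and 21 and 28. A pseudocount of 0.01 gave 1249 and 734 between F1r and F1i and 420 and 558 between hybrids and parents, where no filter gave 364 and 491. Depth limits the low genes: Hoxa6, at a mean of 0.128 FPKM, rests on 2 to 6 estimated fragments and Hoxa3 on 7 to 17.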

Other observations

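Chromatin regulators that hold Hox genes silent or active in the embryo were measured alongside them. Of 18 Polycomb and Trithorax genes 17 passed the filter, and Men1 was listed at 0 in all 4 libraries. The Polycomb genes Phc2, Ezh1, Cbx7 and Bmi1 were the highest, with Ezh1, a histone H3 lysine methyltransferase, at 16.2 FPKM in F1r, 15.0 in F1i, 15.2 in CAST and 13.5 in B6. Cbx2, a reader of that mark, was at 0.809 FPKM in F1r, 0.695 in F1i, 1.15 in CAST and 0.498 in B6 and at least 2-fold higher in CAST than in B6, the only member of the list past 2-fold in any comparison. That is 1 of 17, against 8.07% higher in CAST among all genes and 15.4% among those from 0.1 to 1.5 FPKM. The share of the list past 2-fold therefore does not exceed the background. The precursors of the microRNAs of the Hox clusters, Mir10a, Mir10b, Mir196a-1, Mir196a-2, Mir196b and Mir615, were listed at 0 in every library.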
